A study of Mus musculus with 7 samples.

Results

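Open chromatin of resting airway macrophages (AMs) of wild-type (WT) mice was described over all 90376 peaks of the baseline ATAC-seq table, in 3 WT libraries of 7 in the series. Every peak was used and none was selected by its signal. The other 4 libraries, from *Scnn1b*-Tg mice (a transgene for a sodium channel subunit in the airways), were not compared. Per the labels and the study's methods, the AMs came from untreated 6-week-old female C57BL/6 mice and were sorted fresh as CD45+ Siglec-F+ CD11c+ cells, with littermates of both genotypes in the experiment. The 3 libraries are separate samples of 1 genotype, each with a labelled batch of its own, so batch and library cannot be told apart. The table's columns carry a number that no label holds, and the replicate numbers used here name columns only.

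In ATAC-seq a transposase cuts and tags DNA that is not wrapped tightly into nucleosomes, so that read number over a region reports how open it is. In macrophages the factor PU.1 marks many enhancers together with C/EBP and AP-1 factors, and AMs further depend on GM-CSF and on the nuclear receptor PPARγ, which drives a program of lipid handling suited to surfactant clearance. Promoters of widely used genes tend to be open in any cell type, whereas enhancers far from starts differ more between cell types.

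The WT libraries held 39162909, 28248016 and 30806739 reads in peaks (replicates 1, 2 and 3). Signal is given as reads scaled by the authors to a common level per library, or as these scaled reads per kb of peak where peaks or genes are compared with each other. The median peak was 669 bp wide with a mean of 120.6 scaled reads. The lowest value of each library was taken as 1 read, and 18, 61 and 49 peaks were at it in replicates 1, 2 and 3. Whether any of these peaks was empty before the authors' processing cannot be told from such values. A peak entered the table when called in at least 2 of the 7 samples of either genotype, and a gene without a peak therefore lacks a called region and is not shown to be closed. In a bulk sample, a region open in few cells and one slightly open in all cells cannot be told apart. No test was run on the 3 libraries of this 1 group: a 2-sided exact sign-flip test over them cannot give a p below 0.25. Values are given with their spread.

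To show what the open regions of named AM genes look like, 60 bases are given around the 8-letter PU.1 string GAGGAAGT (in capitals, searched on both strands) in the strongest peak per kb of each gene that held the string in its central 200 bp. The sequences are from mm10, and each is written so that the capitals read 5′ to 3′. The 5 markers and 5 transcription factor genes were searched, *Siglecf* and *Spi1* had no such peak, and sequences of 4 markers and 1 factor are shown. The *Itgax* sequence holds the string 2 times. The capitals mark letters and not a measured binding site.
*Pparg*, chr6:115424513-115424572 (minus strand): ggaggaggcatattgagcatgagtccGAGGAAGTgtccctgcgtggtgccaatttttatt
*Itgax*, chr7:128133804-128133863 (minus strand): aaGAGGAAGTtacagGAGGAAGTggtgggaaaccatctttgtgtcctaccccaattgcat
*Car4*, chr11:84955489-84955548 (plus strand): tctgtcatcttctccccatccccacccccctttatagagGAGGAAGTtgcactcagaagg
*Marco*, chr1:120449720-120449779 (minus strand): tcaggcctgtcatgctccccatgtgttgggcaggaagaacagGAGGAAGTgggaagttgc
*Irf8*, chr8:120763446-120763505 (minus strand): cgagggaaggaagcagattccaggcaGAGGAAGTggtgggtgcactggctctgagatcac

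The *Pparg* sequence lay in a promoter peak 2.03 kb from a start, with 1832, 1540 and 949 scaled reads per kb in replicates 1, 2 and 3. The *Itgax* sequence lay in a promoter peak, at -0.729 kb from a start as assigned by the authors, with 1701, 1330 and 1394 scaled reads per kb. It is not the *Itgax* start peak given further on, which was found from GENCODE M21 starts and was lower. The *Marco* sequence lay in a distal intergenic peak 54.5 kb from a start, with 301, 288 and 187 scaled reads per kb. All 3 peaks were more open in replicate 1 than in replicate 3. The *Car4* peak, a promoter peak, had 559, 461 and 132 scaled reads per kb, and that of *Irf8*, an interferon regulatory factor gene of myeloid cells, lay in an intron 10.9 kb from a start and had 273, 304 and 196. Of the 28 peaks assigned to *Pparg* 3 held the string, as did 2 of 26 of *Marco* and 1 of 6 each of *Car4* and *Itgax*, and none of the 6 of *Siglecf*. Over all 90376 peaks, 5964 (6.599%) held it, and nothing particular to these genes is read from counts this small.

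RefSeq promoters of 3 lineage genes are shown next because each lies wholly inside an open start peak. They are the 250 bases before the annotated start (GRCm38), with strings of AP-1 (TGANTCA) and C/EBP (TTGCNNAA) in capitals, searched on both strands. *Pparg* encodes PPARγ, *Itgax* CD11c, and *Cd68* a lysosomal glycoprotein used as a macrophage marker.
*Pparg*, chr6:115421816-115422065 (plus strand): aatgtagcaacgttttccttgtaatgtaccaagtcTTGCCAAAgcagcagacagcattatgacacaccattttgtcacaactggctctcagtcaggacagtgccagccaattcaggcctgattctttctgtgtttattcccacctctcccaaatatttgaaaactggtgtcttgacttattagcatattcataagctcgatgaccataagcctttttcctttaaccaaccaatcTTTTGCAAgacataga
*Itgax*, chr7:128129300-128129549 (plus strand): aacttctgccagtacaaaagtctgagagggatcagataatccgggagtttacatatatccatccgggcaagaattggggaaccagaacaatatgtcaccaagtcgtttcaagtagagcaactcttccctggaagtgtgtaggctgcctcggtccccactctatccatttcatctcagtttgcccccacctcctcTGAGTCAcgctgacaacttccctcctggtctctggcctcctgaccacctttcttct
*Cd68*, chr11:69666171-69666420 (minus strand): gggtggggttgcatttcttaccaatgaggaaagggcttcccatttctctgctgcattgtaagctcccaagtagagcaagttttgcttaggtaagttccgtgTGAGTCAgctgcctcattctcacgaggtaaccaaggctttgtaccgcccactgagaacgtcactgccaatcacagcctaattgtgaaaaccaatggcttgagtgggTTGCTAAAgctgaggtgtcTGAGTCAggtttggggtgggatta

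Among all 32817 RefSeq promoters of this length, 6.75% held the AP-1 string, 9.57% the C/EBP string and 2.44% the PU.1 string. Each string alone was therefore found in many promoters, the PU.1 string least often (801).

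The first question was where in the genome AM chromatin was open. Promoters within 1 kb of a start were 21.9% of peaks and held 46.8% ± 4.26 (SD, n = 3) of the signal, whereas distal intergenic sequence was 26.8% of peaks with 17.5% ± 1.57 (SD, n = 3) of the signal. The promoter share was 42.6% in replicate 1, 46.6% in replicate 2 and 51.1% in replicate 3. The distal intergenic share ran in the opposite order, at 19.01%, 17.7% and 15.9%. First introns had 13.3% of peaks and 9.31% ± 0.715 (SD, n = 3) of the signal, and other introns 20.0% of peaks and 12.1% ± 1.18 (SD, n = 3).

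**Figure D1:**
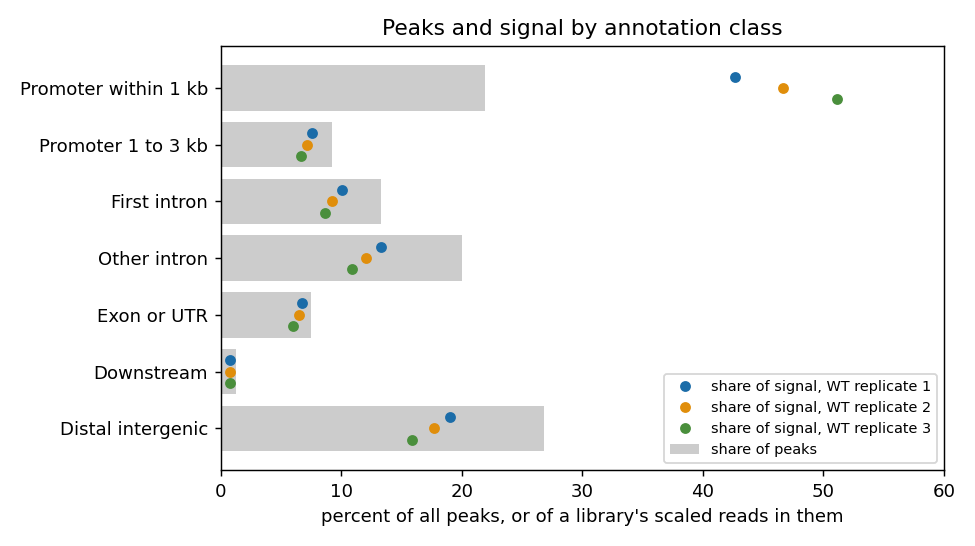
Percent of peaks (grey bars) and percent of each WT library's scaled reads (points, 1 per library) in 7 annotation classes. Only promoters within 1 kb held a larger share of the signal (42.6% to 51.1%) than of the peaks (21.9%), in all 3 libraries.

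Per kb of peak, promoters within 1 kb were more open than any other class. Their median was 471 ± 50.7 (SD, n = 3) scaled reads per kb against 135 ± 3.82 (SD, n = 3) in distal intergenic sequence. The ratio of these medians was 3.02, 3.52 and 3.96 in replicates 1, 2 and 3, above 1 in all 3 libraries. Promoter peaks were also wider, with a median of 1162 bp against 595 bp, and of higher GC content, with a median of 55.7% against 47.0%. Peaks over 10 kb from a start were 47.6% of peaks and held 30.9% of the signal.

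Signal was concentrated in few regions. The strongest 1% of peaks, 904 in number, held 10.2% ± 0.550 (SD, n = 3) of the signal, and 70.6% of them were promoters within 1 kb. The strongest 10% held 50.9% ± 1.91 (SD, n = 3). Chromosome X had 13.8 peaks per Mb, below every autosome (26.0 to 52.4, median 36.6).

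The second question was whether genes of the macrophage lineage had open starts and genes of other lung cells did not. A gene was said to have a start peak when a peak lay within 1 kb of one of its annotated starts, and its level is that of the strongest such peak per kb. Of all 22006 genes, 62.7% had a start peak, and 31.4% had one at or above the median of genes with a start peak (652 scaled reads per kb). The lists and their members were chosen with earlier results of these data known, so their counts describe the listed genes and test nothing. Of 84 lineage genes, 84 had a start peak and 66 lay at or above that median. Of 140 genes that mark other lung cells or blood cells, 64 (45.7%) had a start peak and 10 (7.14%) lay at or above it. With the authors' own assignment of peaks to starts, a start peak was found at 57.1% of all genes, 100% of lineage genes and 51.4% of genes of other cells, a smaller gap between the first and last. The median level was 1028 scaled reads per kb for lineage genes and 188 for genes of other cells, and the ratio of these medians was 5.98, 5.11 and 4.45 in replicates 1, 2 and 3.

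The distance of lineage genes from all genes depended on the library: the ratio of their median to that of all genes with a start peak was 1.86, 1.58 and 1.21. Start peaks of lineage genes had a median GC content of 53.8%, those of all genes 57.7% and those of other cells 55.7%, and the libraries differed with GC content as given further on. The part of GC content in these ratios was not tested. Housekeeping genes, used here as a positive control, had 20 start peaks of 20 and a median of 1472 scaled reads per kb. Genes of unrelated tissues such as liver and muscle had 3 of 16.

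**Figure D2:**
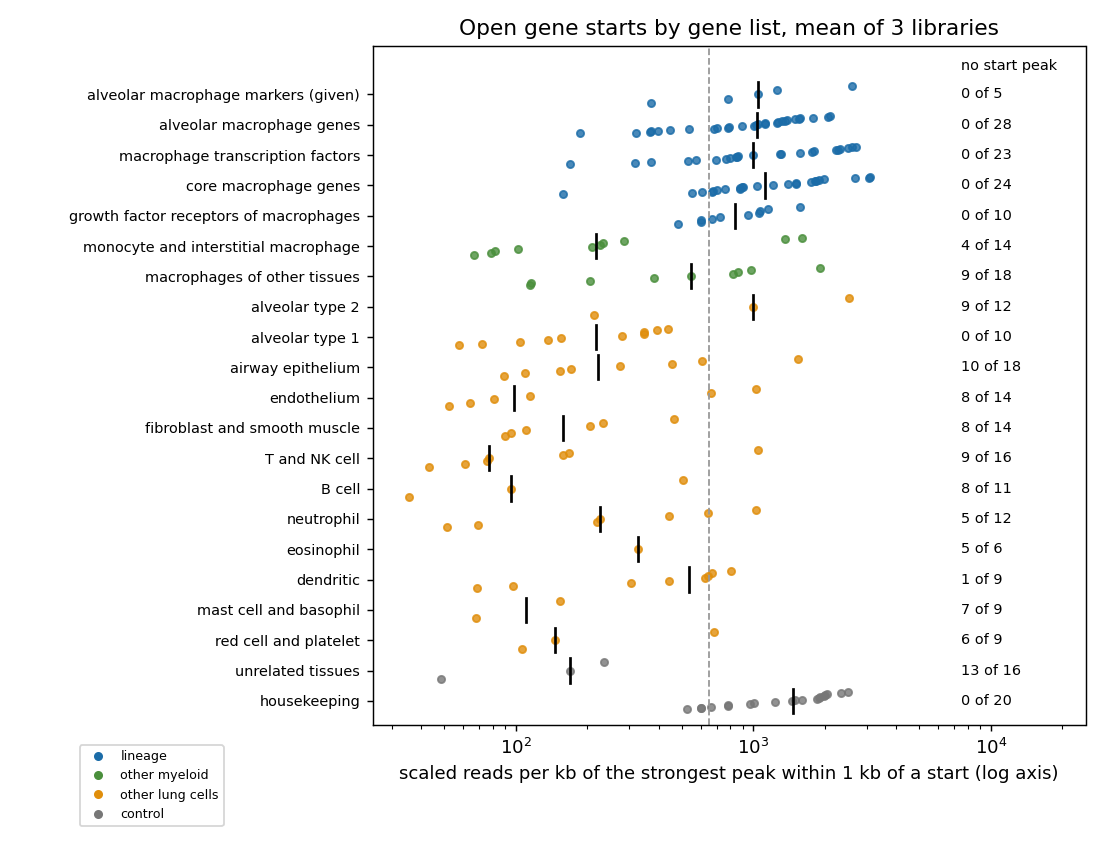
Scaled reads per kb of the strongest start peak of each gene (points, mean of 3 libraries, log axis) in 21 gene lists, with the median of each list as a black bar and the number of genes without a start peak at the right. The dashed line is the median of all genes with a start peak (652), and all 5 lineage lists have their median above it (835 to 1121).

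All 5 markers of AMs had a start peak, as did 62.7% of all genes and 10 of 10 genes of alveolar type 1 cells. This count alone therefore does not check the cell label, and the cells were sorted on the products of *Siglecf* and *Itgax*. *Pparg* had the most open start, with 3301, 2673 and 1863 scaled reads per kb in replicates 1, 2 and 3, at the 98.5th percentile of genes with a start peak. It was highest in replicate 1 and lowest in replicate 3. *Itgax* had 1363, 1177 and 1213 scaled reads per kb, close in all libraries. *Siglecf*, which like *Itgax* encodes a surface protein used in the sort, a sialic acid-binding lectin, had 1191, 1122 and 832. *Car4*, for carbonic anhydrase 4, had 790, 892 and 669. Both were lowest in replicate 3. *Marco*, for a scavenger receptor of bacteria and particles, had the lowest start of the markers with 346, 344 and 418, and was the only marker below the median of all genes. *Marco* was nevertheless assigned 26 peaks, with 7623 ± 567 (SD, n = 3) scaled reads in all, against 6 peaks and 3477 ± 423 (SD, n = 3) for *Siglecf*. Start levels averaged 1251 ± 98.5 (SD, n = 3) for *Itgax* and 1048 ± 191 (SD, n = 3) for *Siglecf*, with *Itgax* higher in 3 of 3 libraries.

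The 3 most open starts of the AM gene list were those of *Plet1*, *Plin2* and *Cidec*. *Plet1*, a gene of epithelial cells and AMs, had 2525, 2254 and 1552 scaled reads per kb. *Plin2*, whose product coats lipid droplets, had 2064, 2167 and 1933. *Cidec*, whose product enlarges lipid droplets, had 2084, 1505 and 1763. All 3 were above the median of all genes in each library. In the list of 28 AM genes 21 lay at or above that median, and the lowest was *Ear1*, of an eosinophil-type ribonuclease family with close paralogues, with 187, 210 and 159 scaled reads per kb.

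The transcription factors of macrophages had open starts throughout, 23 of 23 with 18 at or above the median. *Fosl2*, of the AP-1 family, had 2266, 2422 and 3405 scaled reads per kb. *Cebpa*, of the C/EBP family, had 2095, 2540 and 2891. Both were highest in replicate 3, the reverse of *Pparg*. *Spi1*, which encodes PU.1, was moderate, with 745, 950 and 898. *Rxra*, the partner receptor of PPARγ, had the lowest start of the list with 114, 154 and 238 scaled reads per kb, yet was assigned 29 peaks with 11869 ± 269 (SD, n = 3) scaled reads in all.

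Core macrophage genes included the highest lineage start of all. *Cd68* had 3348, 2749 and 3198 scaled reads per kb, and *Sirpa*, the inhibitory receptor for CD47, had 3249, 2879 and 3028, so that these 2 genes did not differ beyond their spread. *Lgals3*, for galectin-3, followed with 2528, 2415 and 3088. The lowest was *Msr1*, for scavenger receptor A, with 174, 199 and 102. Of the growth factor receptor list, *Csf2ra*, the GM-CSF receptor α chain, had 1260, 1407 and 2043, and *Csf2rb*, its signalling chain, 1197, 1245 and 745. *Stat5a*, a factor activated by this receptor, had 1069, 1164 and 1221. The levels of *Csf2ra* and *Csf2rb* moved in opposite directions in replicate 3.

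Genes of other macrophages and monocytes had a start peak about as often as all genes, but mostly at a low level. Of 32 such genes 19 (59.4%) had a start peak, against 62.7% of all genes. At or above the median lay 6 (18.8%), against 31.4% of all genes. No start peak was found at *C1qa* and *C1qb*, complement genes of interstitial and other tissue macrophages, at *Lyve1* and *Cd163*, markers of interstitial macrophages, or at *Sall1*, a factor of microglia. *Ccr2*, the monocyte chemokine receptor, had 313, 333 and 210 scaled reads per kb. *Itgam*, which encodes CD11b, had a high start, with 1807, 1493 and 1521, in a peak shared with a start of *Gm49368*. *Id3*, a factor of Kupffer cells, had 1725, 1885 and 2135.

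Of the genes of other lung cells, 76 of 140 had no start peak. They included the surfactant genes *Sftpc*, *Sftpa1*, *Sftpb* and *Sftpd* of alveolar type 2 cells, the T cell receptor genes *Cd3e*, *Cd3d* and *Cd3g*, the B cell genes *Cd79a* and *Cd79b*, and the eosinophil genes *Epx* and *Prg2*. Of the 140 genes, 33 were assigned no peak at any distance. The same share over all genes was not computed, so nothing is read from this count. In the type 1 cell list 10 of 10 genes had a start peak, but 0 lay at or above the median, and the highest was *Cav1*, for caveolin, with 345, 482 and 489 scaled reads per kb. In the dendritic cell list 8 of 9 genes had one, with a median of 534 scaled reads per kb and 2 genes at or above the median of all genes. These 2 were *Irf4* and *Clec10a*. Below that median on average lay the dendritic cell receptor genes *Clec9a*, with 657, 673 and 550, and *Xcr1*, with 530, 481 and 316. The lowest of the 8 was *Ccr7*, with 30.6, 45.2 and 131. In the neutrophil list 7 of 12 genes had a start peak, with a median of 227.

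The 10 genes of other cells at or above the median were spread over 7 lists. *Etv5*, an ETS factor used as a type 2 cell marker, was the highest with 2246, 2295 and 3055 scaled reads per kb, at the 98.2th percentile. *Tppp3*, a ciliated cell gene for a tubulin-binding protein, had 1420, 1557 and 1654. *Gata3*, a factor of T cells, had 821, 1042 and 1282. These 3 were highest in replicate 3. *S100a8*, a calcium-binding protein gene of neutrophils, had 1139, 1052 and 876. *Pecam1*, for the endothelial adhesion molecule CD31 (also present on myeloid cells), had 1149, 1062 and 873 in a peak shared with a start of *Milr1*. *Abca3*, the lipid transporter of type 2 cells, had 779, 985 and 1221 in a peak shared with *Abca17*. The others were *Flt1*, *Irf4*, *Clec10a* and *Klf1*, between 663 and 802 scaled reads per kb on average. Of the lists these genes come from, start peaks were found at 3 of 12 alveolar type 2 genes, 8 of 18 airway epithelial, 6 of 14 endothelial, 7 of 16 T and NK cell, 7 of 12 neutrophil, 8 of 9 dendritic and 3 of 9 red cell and platelet genes. Levels in these lists ran from 42.9 scaled reads per kb (*Cd28*) to 2532 (*Etv5*). The part of admixed cells in these values was not tested.

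**Figure D3:**
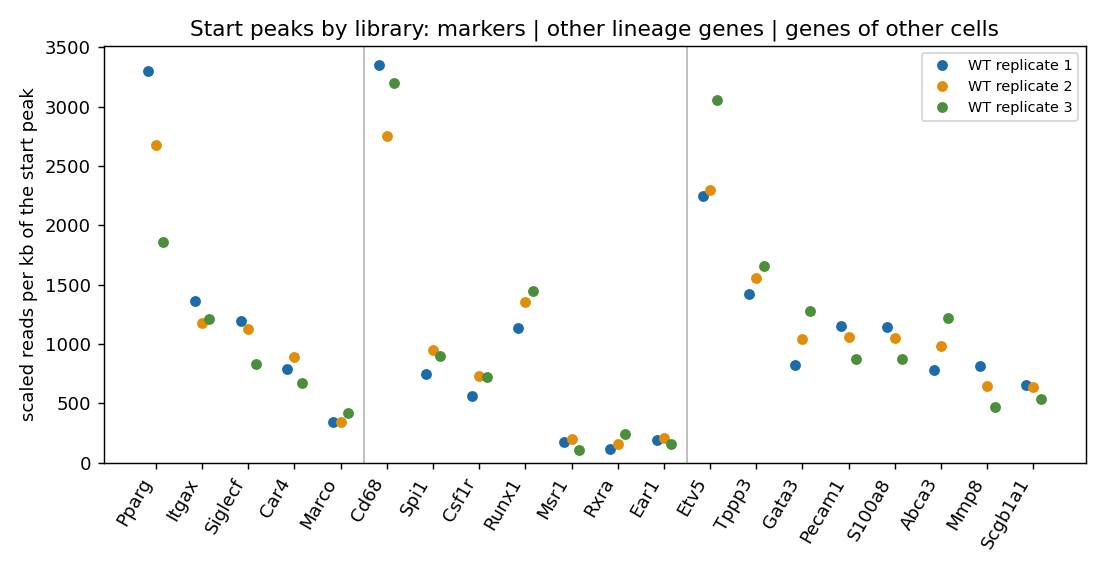
Scaled reads per kb of the start peak in each WT library (1 point per library) for the 5 markers, 7 other lineage genes and 8 genes of other cells. The 7 were picked from both ends of their lists, but the 8 only from the high end of theirs. The lowest of the 8, *Scgb1a1*, averaged 610, against a median of 188 over the 64 genes of other cells with a start peak. *Pparg* was at 3301 in replicate 1 and 1863 in replicate 3, whereas *Etv5* was highest in replicate 3 with 3055.

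The third question was which genes and regions gathered most signal. The highest summed signal was assigned to *A630001O12Rik*, an unnamed RIKEN gene on chromosome 8, with 40666, 38400 and 42054 scaled reads over 44 peaks. *Nedd9*, for a scaffold protein of cell adhesion signalling, had 42050, 33919 and 33921 over 61 peaks. *Runx1*, a transcription factor of blood cells, had 37401, 33876 and 31427 over 66 peaks. The remaining 7 of the highest 10 were *Zfp608*, *A530013C23Rik*, *Cd9*, *Cd44*, *Akap13*, *Sgms1* and *Tcf7l2*, from 36245 down to 29732 on average. In all 10 genes most of the signal lay over 3 kb from a start, between 68.2% and 98.0%. The 100 genes of highest sum held 6.60% ± 0.411 (SD, n = 3) of the signal. Over all 17797 assigned genes the median was 3 peaks and 1023 scaled reads. Sums add up all peaks assigned to the nearest start and so can be larger where genes are far apart. The part of gene spacing in these sums was not tested.

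Within the list of 23 macrophage transcription factors, *Klf4*, a zinc finger factor of monocytes and macrophages, was assigned the most peaks (69), with 25736, 24641 and 21833 scaled reads in all. *Runx1* had 66 peaks and *Zeb2*, a repressor with a role in macrophage identity, 52 with 20465, 16692 and 17506. *Mitf*, a factor of lysosome and pigment genes, had 36 peaks. *Rxra* and *Tfec* had 29 each. By contrast *Cd68*, with the most open lineage start, was assigned 2 peaks.

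Peaks over 3 kb from a start were joined into groups where they lay close together, which gave 23447 groups from 62269 peaks. The strongest group spanned chr8:126683192-126936439, with 58 peaks and 46601, 44637 and 47866 scaled reads, 9.40 kb from the nearest protein-coding start, that of *Tomm20*, a mitochondrial import receptor. The second, at chr2:167694950-167865026 with 44 peaks, held 37652, 38413 and 39217 and lay 6.04 kb from the start of *Cebpb*, which encodes C/EBPβ. Both were close to equal in all 3 libraries. The third, at chr10:67579586-67743152 with 48 peaks, held 33966, 28836 and 23578 and lay 40.9 kb from *Egr2*, a zinc finger factor of macrophages, and 30.6 kb from *Ado*. It was highest in replicate 1. The next groups lay over *Tcf7l2*, *Zfp608* and *Prkch*, near *Zfp36l2* (4.18 kb), which encodes an mRNA decay factor, and over *Pdcd1lg2*, which encodes the inhibitory ligand PD-L2. A span of this kind says which start is nearest and not which gene it acts on. The strongest 1% of groups, 234 in number, held 17.3% of the signal over 3 kb from a start.

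Single regions over 3 kb from a start reached the level of the strongest promoters. A peak in the 3′ untranslated region of *Lars2*, a mitochondrial leucyl-tRNA synthetase gene, had 5493, 5722 and 3963 scaled reads per kb. Its central 150 bases matched mitochondrial DNA, aligned without gaps, at no more than 62 positions, within the range of the other 9 strongest regions (58 to 64). Such a comparison can find only a close copy of mitochondrial DNA. The part of other repeated sequence in the level of this peak was not tested. An intergenic peak assigned to *Sirpa* had 5030, 3997 and 3813, above the *Sirpa* start peak itself. It lay 12.0 kb from a start as assigned by the authors, and 39.1 kb from the nearest GENCODE M21 protein-coding start, that of *Sirpa*. A peak in intron 2 of *Dapk1*, for a death-associated kinase, had 4363, 3871 and 3788. An intergenic peak 46.5 kb from the GENCODE M21 start of *Tnfaip3*, the NF-κB inhibitor A20, had 4061, 2927 and 4528. Another, 4.81 kb from *Mcl1*, a survival factor of the BCL2 family, had 4397, 3315 and 3745. The other 5 of the 10 were assigned to *Ccdc97*, *E230025N22Rik*, *Hivep3*, *E230013L22Rik* and *Foxj2*, between 3820 and 4127 on average.

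The fourth question was which sequence strings the open regions held. The PU.1, AP-1 and C/EBP strings were more frequent in the central 200 bp of peaks over 3 kb from a start, and those of several general promoter factors in promoters within 1 kb. The PU.1 string was in 7.61% of 62269 distant peaks and in 3.24% of 19800 promoters, whereas the reversed letters TGAAGGAG, a control of the same composition, were in 1.43% and 1.16%. The AP-1 string was in 10.1% and 4.67%, and its reversed letters ACTNAGT in 5.99% and 3.51%. The C/EBP string, for which no reversed control was searched, was in 13.3% and 7.17%. The Sp1/KLF string GGGCGGGG went the other way, with 1.37% of distant peaks and 12.3% of promoters, as did the ETS string CCGGAAGT (0.487% and 2.49%), NRF1 (GCGCATGCG, 0.0642% and 0.788%) and YY1 (AAGATGGCG, 0.164% and 1.11%). The string of the E-box factors, which include MITF, TFEB and BHLHE40 (TCACGTGA), was also less frequent in distant peaks (0.242%) than in promoters (0.485%). The strings of RUNX (TGTGGTTT, 3.31% and 1.25%), MAF (TGCTGANTC, 1.25% and 0.763%) and PPAR/RXR (GGNCAAAGG, 1.51% and 1.12%) were more frequent in distant peaks. Distant peaks had a lower GC content, and its part in these shares was not tested. Searched over whole peaks, C/EBP was as frequent in promoters (33.1%) as in distal intergenic peaks (33.0%), and AP-1 nearly so (21.8% and 26.2%). Promoter peaks were wider, as given above.

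Among distant peaks the strings followed signal differently. CTCF, the factor of domain boundaries, was in 2.39% of the lowest decile of signal per kb and 6.41% of the 4th decile, and was least frequent, 0.562%, in the highest decile. The AP-1 string was most frequent in the highest decile (12.8%) and ranged from 8.85% to 10.7% in the others. The PU.1 string stayed between 6.94% and 8.06% in all deciles. Median GC content of the deciles ran from 46.5% to 47.9%, and was highest in the highest decile. The part of GC content in these shares was not tested.

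**Figure D4:**
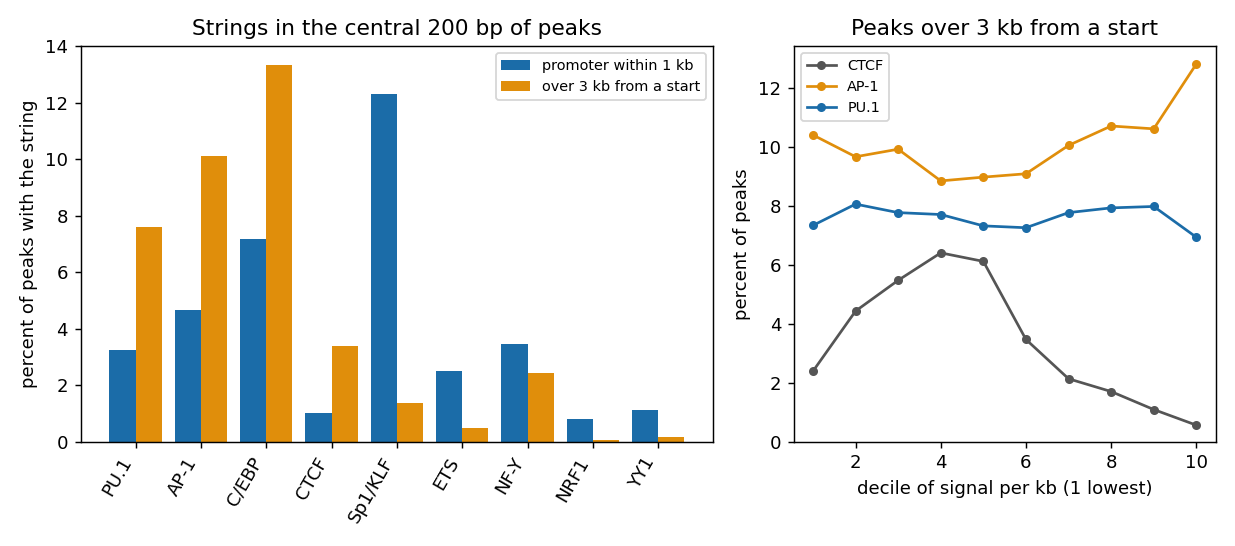
Left, percent of promoters within 1 kb (19800 peaks) and of peaks over 3 kb from a start (62269 peaks) that hold each string in their central 200 bp. Right, the same percent by decile of signal per kb among the distant peaks, where CTCF is highest in the 4th decile (6.41%) and AP-1 in the highest (12.8%).

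The last question was how far the libraries differed, since this sets how firmly single values can be read. Log2 values correlated across peaks with a Pearson r of 0.976 between replicates 1 and 2, 0.948 between 1 and 3 and 0.958 between 2 and 3, as a description over 90376 peaks that share the libraries. The median coefficient of variation was 19.9%, against 9.58% from counting alone. In 17.0% of peaks (15348) the highest library was over 2-fold above the lowest, on the scale of scaled reads plus 1. Without replicate 3 this share was 4.14%, and without replicate 1 it was 8.95%. Replicate 3 was the highest library in 44.4% of these peaks and the lowest in 42.3%.

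These differences followed GC content. In the decile of peaks with lowest GC content (median 38.9%) replicate 1 was 0.23 above the mean of the libraries on the log2 scale and replicate 3 was at -0.22. In the highest decile (61.9%) replicate 1 was at -0.30 and replicate 3 at 0.34. Replicate 2 stayed within -0.03 and 0.02. The same order held within promoters within 1 kb and within peaks over 3 kb from a start. Among the 3 libraries, replicate 3 was the lowest at the *Pparg* start and the highest at the starts of *Fosl2* and *Cebpa*. The part of GC content at single genes was not tested.

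**Figure D5:**
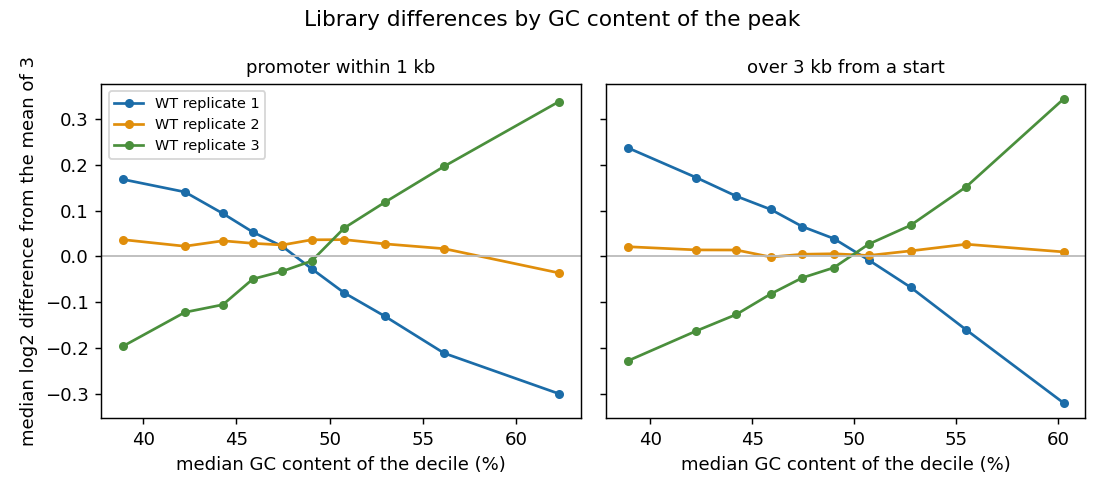
Median log2 difference of each WT library from the mean of the 3, by decile of GC content (defined over all peaks), for promoters within 1 kb and for peaks over 3 kb from a start. Replicate 1 goes down and replicate 3 goes up with GC content in both sets of peaks, and replicate 2 stays near 0.

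The 5 peaks that differed most between libraries, among 49210 with a mean of at least 100, were all highest in replicate 3. The peak assigned to *Mir3061*, a microRNA gene, had 125, 165 and 1216 scaled reads, and that of *Fam71a* 152, 120 and 1152. Those of *Slc28a3*, a nucleoside transporter gene, *Eif5*, a translation initiation factor gene, and *Ccnl1*, a cyclin gene, were 8.45 to 9.15 times higher in replicate 3 than in the lowest library. Since each library is alone in its labelled batch, these differences cannot be told apart from the batch.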

How the data were processed

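ATAC-seq of freshly sorted AMs was analysed from the baseline table, using its 3 WT columns and none of its 4 *Scnn1b*-Tg columns. The authors aligned reads to mm10 in an ENCODE pipeline (atac_dnase_pipelines 0.3.0), formed consensus peaks with DiffBind 2.14.0 (called in at least 2 samples) and annotated them with ChIPseeker 1.22.1. The deposited signal values are reads per peak scaled by 1 factor per library. All of them (100%) are whole multiples of what 1 read is worth (within 0.01 reads), so reads were recovered. Columns of the authors' own genotype comparison (means, log2 fold changes, p-values) were not used. Values were averaged over libraries, divided by peak width, and summed by class and assigned gene. Starts came from GENCODE M21 (22006 protein-coding genes). Strings were searched in the central 200 bp of the mm10 sequence, and promoter sequences came from RefSeq (GRCm38). No test was run; intervals and spreads cover these libraries only, and the labels do not tell whether each library is 1 mouse or a pool. Named genes were the 5 markers, the highest 3 and some genes without a start peak of each list, the 10 highest gene sums, the 10 strongest distant peaks, 8 groups of peaks, the 5 most variable peaks and the 5 factors with most peaks; a few others were chosen after their values were seen. Members and lists were chosen with earlier results of these data known. Computation used Python 3.11.15, numpy 2.4.6, pandas 2.3.3, scipy 1.17.1 and matplotlib 3.10.9 and was tested on simulated data. Alternatives were another scaling, each library left out, autosomes only, a minimum mean of 20, the median of libraries, wider promoter and start windows, no strongest 0.1% of peaks, values per peak, pseudocounts of 0.5 and 5, and, chosen after seeing the data, the authors' assignment of starts.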

Additional observations from a re-analysis of the deposited data

How the results depend on the processing

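Computed on the mean of the libraries, counts of start peaks and shares of signal kept their size under most alternatives. Promoters held 54.0% of the signal when defined within 3 kb (46.9% within 1 kb), and the promoter to distal ratio of medians was then 3.02, or 5.94 per peak instead of per kb (3.59). With a minimum mean of 20, the strongest 1% and 10% of peaks held 9.45% and 48.5% of the signal (10.0% and 50.6%), 62.1% of all genes had a start peak, and the median of genes of other lung cells was 213 scaled reads per kb (188). With starts within 3 kb, 66.8% of all genes and 56.4% of genes of other lung cells had a start peak, and the lineage median was 1164 (1028). On autosomes only, 64.1% of genes had a start peak, and with the authors' assignment of starts, chosen after seeing the data, 57.1%, while the share for genes of other lung cells was 51.4% (45.7%). The log2 difference between lineage genes and genes of other lung cells was 2.67 per peak (2.45 per kb). Strings were more frequent over whole peaks, in promoters and distal intergenic peaks respectively: PU.1 12.5% and 16.5% (3.24% and 8.05% in the central 200 bp), AP-1 21.8% and 26.2% (4.67% and 10.3%), C/EBP 33.1% and 33.0% (7.17% and 13.8%), CTCF 3.18% and 6.40% (1.03% and 3.90%), and Sp1/KLF 38.2% and 5.22% (12.3% and 1.52%). With promoters within 3 kb they were 4.36%, 6.28%, 8.87%, 1.76% and 9.37% in promoters, in the same order. Leaving out 1 library moved the share of peaks over a 2-fold range from 4.14% to 11.8% (17.0%) and the median coefficient of variation from 12.6% to 20.7% (19.9%), with the lowest of each without replicate 3. Fewer libraries also lower a range by construction. With 3 libraries, leaving out 1 cannot move a mean by 1 SD, so such values say nothing of stability. No paired analysis was possible because 1 genotype was described and the columns carry no label number.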
